A study of Homo sapiens with 4 samples.

Results

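The regions described here are p53 ChIP-seq peaks around the centromeres that were found in the peak list of 1 genotype and not in the other. A peak was taken when it overlapped no peak of the other list and its midpoint fell in a fixed hg38 range around the centromere of its chromosome. The 24 ranges, 1 per chromosome, add up to 133 Mb. Of 4067 peaks in the 2 deposited lists, 1358 met the rule. They were 874 of 2008 peaks in the list of cells labelled p53-R273H and 484 of 2059 peaks in the list of the wildtype control. The members were chosen by overlap and position, so their numbers and places are a description, and no test was made on them.

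Both lists came from HCT116, an established human colorectal carcinoma cell line, grown as spheroids in serum-free medium to which epidermal growth factor (20 ng/ml) and basic fibroblast growth factor (20 ng/ml) had been added, and used at passages 13 to 18. R273H is a p53 protein with the arginine that contacts DNA replaced by histidine; the labels do not say how it was introduced, or whether the R273H and control lines are single clones. Chromatin was crosslinked for 5 minutes in 1% formaldehyde and immunoprecipitated with the p53 antibody DO-1, which binds both forms of the protein. There was 1 ChIP library and 1 input library per genotype. Differences between the genotypes therefore have no replicate check, and every interval below covers counting error only. Neighbouring peaks are not independent, which the intervals do not cover. Peak lists hold no reads, so the depth is unknown. Each peak has a score set by the authors within its list; it began just above 50 in both, its scale is not stated, and scores are not compared between lists.

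Centromeres are built on long arrays of alpha satellite, a short DNA unit repeated head to tail, on which the kinetochore assembles in cell division. The arrays are flanked by other satellites and then by segmental duplications, large blocks copied between chromosomes that carry pseudogenes and gene families. In hg38 the arrays are represented by modelled repeat sequence, so a position inside them stands for a kind of repeat more than for a unique place. p53 is a transcription factor that binds a paired DNA element near its target genes and is best known for inducing cell cycle arrest and apoptosis genes. How reads that match several repeat copies were placed is not stated in the labels or notes.

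Of 348 promoter windows of RefSeq genes in the ranges, from 250 bases before to 50 after each gene start, a member peak overlapped 1. This was the window of CNTNAP3B, a gene of the contactin-associated protein family with near-identical copies on chromosome 9, and the peak was from the wildtype list (chromosome 9, 42129346 to 42129530, score 59.23). The sequence is shown because it is the one place where a member peak met an annotated promoter. It is the 250 bases before the gene start at chr9:42129427-42129676 on the minus strand (RefSeq, GRCh38.p14), with the 104 bases under the peak in capitals.
CNTNAP3B: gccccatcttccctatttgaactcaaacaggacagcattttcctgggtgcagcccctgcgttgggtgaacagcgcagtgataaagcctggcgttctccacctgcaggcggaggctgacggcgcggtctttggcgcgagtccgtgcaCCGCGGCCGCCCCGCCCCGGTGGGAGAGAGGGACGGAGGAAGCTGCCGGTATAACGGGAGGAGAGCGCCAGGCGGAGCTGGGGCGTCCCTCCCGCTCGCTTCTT

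G and C made up 66.0% of these bases, against 57.2% over the same stretch of all 35116 promoter windows in the table. The full p53 response element, searched on both strands with up to 13 bases between its parts, was not among these letters, and it was found in 9 of the 35116 windows (0.0256%). Because of the near-identical copies, whether the reads came from CNTNAP3B itself is uncertain. No annotated microRNA lay under a member peak. Genome sequence under the remaining members was not analysed here.

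The centromere ranges held most unshared R273H peaks and a smaller share of the unshared wildtype peaks. In the R273H list 1568 peaks (78.1% of the list) overlapped no wildtype peak, and 874 of these lay in the ranges, which is 55.7% (95% exact binomial interval 53.2 to 58.2). In the wildtype list 1622 peaks (78.8%) overlapped no R273H peak, and 484 of these lay in the ranges, 29.8% (27.6 to 32.1). The ranges make up 4.31% of the span of the chromosomes. Away from them the order of the lists was the opposite, with 694 unshared R273H and 1138 unshared wildtype peaks.

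Unshared R273H peaks lay at 6.57 per Mb inside the ranges and 0.235 per Mb outside them, a ratio of 27.97. For unshared wildtype peaks the densities were 3.64 and 0.385 per Mb, a ratio of 9.45. Shared peaks were less unevenly placed, with 46 R273H and 44 wildtype peaks in the ranges and inside-to-outside ratios of 2.59 and 2.49. Inside the ranges 95% of R273H and 91.7% of wildtype peaks were therefore unshared. There were 1.81 R273H members per wildtype member (exact interval 1.61 to 2.02). This ratio stayed between 1.69 and 1.90 when any 1 chromosome was left out. The 2 lists were called separately from libraries of unknown depth, and the part of depth or of the calling threshold in this ratio was not tested.

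The members were unevenly spread over the chromosomes. In the R273H list the range of chromosome X held 149 members, chromosome 20 held 93, chromosome 7 held 68 and chromosome 17 held 67. These 4 chromosomes carried 43.1% of the R273H members. The same chromosomes led the wildtype list, with 54 on X, 53 on 7, 38 on 20 and 33 on 17, together 36.8%. At the other end, chromosome 4 held 8 R273H members and chromosome 18 held 9 wildtype members, and the range of chromosome Y held none of either list.

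**Figure D1:**
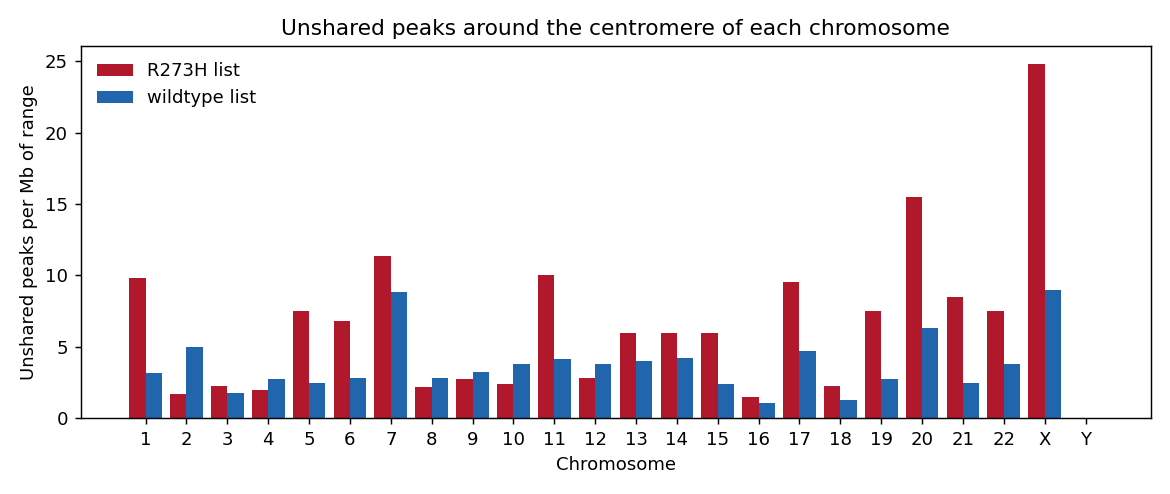
Unshared peaks per Mb of centromere range on each chromosome, with 1 bar for the R273H list and 1 for the wildtype list; there are no error bars because each genotype had 1 ChIP library. Chromosome X stands highest in both lists, with 24.8 R273H and 9 wildtype peaks per Mb, and chromosome 2 is among the few where the wildtype bar is the taller.

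Of 23 chromosomes with members, 17 had more in the R273H list and 6 (chromosomes 2, 4, 8, 9, 10 and 12) had more in the wildtype list. The R273H share of a chromosome's members was 77.3% on chromosome 21 (34 against 10 peaks; interval 62.2 to 88.5) and 75.4% on chromosome 1 (49 against 16; 63.1 to 85.2). On chromosome X it was 73.4% (66.8 to 79.3). Chromosome 2 was the reverse, with 10 R273H and 30 wildtype members, a share of 25% (12.7 to 41.2). Of these 30 wildtype members, 16 lay in 1 block of 34.4 kb, so the count rests in large part on 1 place. On chromosome 7 the lists were close, 68 against 53 peaks and a share of 56.2% (46.9 to 65.2). The interval lay above 50% on 11 chromosomes and below it on 1, chromosome 2. These intervals are not adjusted for the number of chromosomes. The count is a description and no test between the genotypes, which had 1 ChIP library each. Peaks of 1 chromosome are not independent: 98 of the 149 R273H members on X lay within 2.38 Mb. Over the 23 chromosomes the members per Mb of the 2 lists had a Spearman correlation of 0.52 and a Pearson correlation of 0.74, given as a description of points that share the annotation and the repeat content of each chromosome.

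Within the ranges most members lay in the long stretch that holds no annotated gene. The longest such stretches add up to 83.5 Mb of the 133 Mb, and they held 788 R273H members (90.2%) and 405 wildtype members (83.7%). On chromosome X the stretch runs from 57986332 to 62779132 and held all 149 R273H and all 54 wildtype members there. On chromosome 11 (50420632 to 54591479) it held all 60 and all 25. On chromosome 20 members spread further, and 71 of 93 R273H and 25 of 38 wildtype members fell in the stretch. Chromosome 16 had the longest stretch, 10.4 Mb, with 11 R273H and 7 wildtype members in it.

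**Figure D2:**
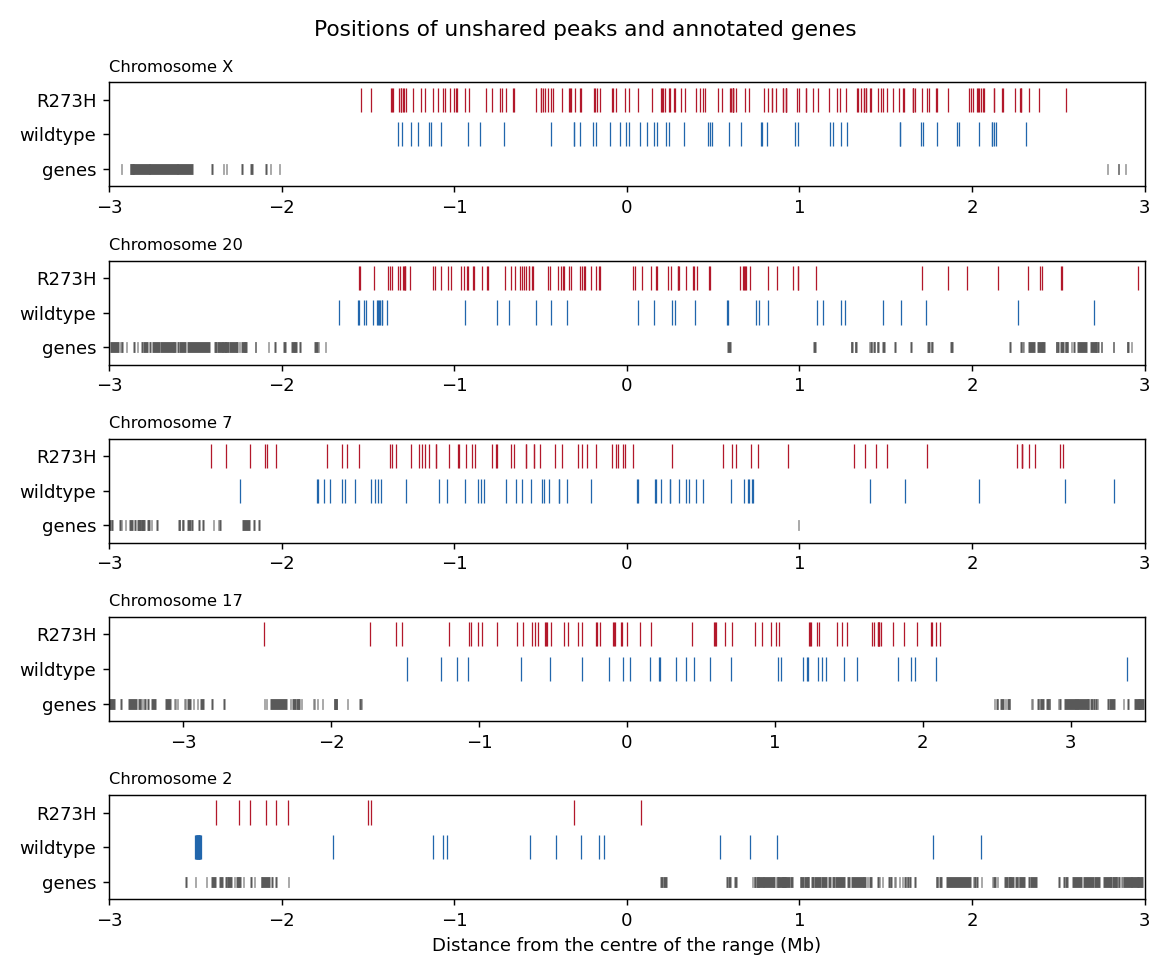
Position of each unshared peak (vertical lines; upper row R273H list, middle row wildtype list) and of annotated genes (grey bars, lowest row) on 5 chromosomes; the horizontal axis is the distance in Mb from the centre of the range. On chromosome X the 149 R273H and 54 wildtype peaks fill the stretch without genes, and on chromosome 2 a block of 16 wildtype peaks stands near the left edge.

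R273H members formed longer chains than wildtype members. When peaks of 1 list separated by at most 100 kb were joined, the 874 R273H members made 221 runs and the 484 wildtype members 238. Runs of at least 5 peaks held 587 R273H members (67.2%) in 45 runs, and 128 wildtype members (26.4%) in 15 runs. A denser list forms longer runs at a fixed distance, so these numbers move with the count of peaks. The largest R273H run was on chromosome X (59473534 to 61857833), with 98 peaks over 2.38 Mb and no gene, and 36 wildtype members had their midpoints inside it. The next were 41 peaks over 0.974 Mb on chromosome 20 (26873918 to 27848053) and 38 peaks over 1.41 Mb on chromosome 7 (58629103 to 60038000). Runs of 28 peaks on chromosome 1 (122026496 to 122499538) and 24 on chromosome 17 (23755534 to 24660759) completed the first 5. None of these 5 contained a gene.

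In the wildtype list the largest runs had 16 peaks each. One lay on chromosome X (59693835 to 60328523) and had 23 R273H members inside it. Runs of 12 peaks on chromosome 20 (26440136 to 26613271), 12 on chromosome 7 (60060000 to 60440678) and 11 on chromosome 7 (58205221 to 58575487) followed.

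The other run of 16 wildtype peaks, on chromosome 2, was the most compact of the 15 wildtype runs of at least 5 peaks. It covered 34.4 kb (91499094 to 91533479), and peaks made up 33.8% of that length, against 1.28% in the wildtype run on X, 11.1% in the run of 12 on chromosome 20 and 5.66% and 5.71% in those on chromosome 7. Some runs of 2 peaks were covered more densely, up to 97.8% on chromosome 9. The 16 scores ran from 54.2 through a median of 77.5 to 222, which was the highest score of any wildtype member. Of the 14 wildtype members scoring at least 100, 5 were in this run. The nearest R273H peak was 87.5 kb away (91620946 to 91621168, score 53.7), itself a member, inside the pseudogene LOC388996. The run lay between genes, 2850 bp from the pseudogene LOC101927984 and 29089 bp from LOC107985797.

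Most members lay far from any gene. The ranges that define them consist largely of gene-free stretches, so this distance is in large part set by the rule and is given as a description. In the R273H list 793 of 874 members, 90.7% (88.6 to 92.6), were over 100 kb from the nearest gene, where the share over the whole list was 42.9%. Among unshared R273H peaks elsewhere it was 19 of 694, 2.74% (1.66 to 4.24). In the wildtype list 416 of 484 members, 86.0% (82.5 to 88.9), were this far from a gene, against 23.1% of the whole list. Among unshared wildtype peaks elsewhere it was 12 of 1138, 1.05% (0.546 to 1.83). The members' median distance to a gene was 846034 bp for R273H and 740952 bp for wildtype. Shared peaks in the same ranges were also far from genes, 39 of 46 R273H peaks (84.8%) and 37 of 44 wildtype peaks (84.1%).

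**Figure D3:**
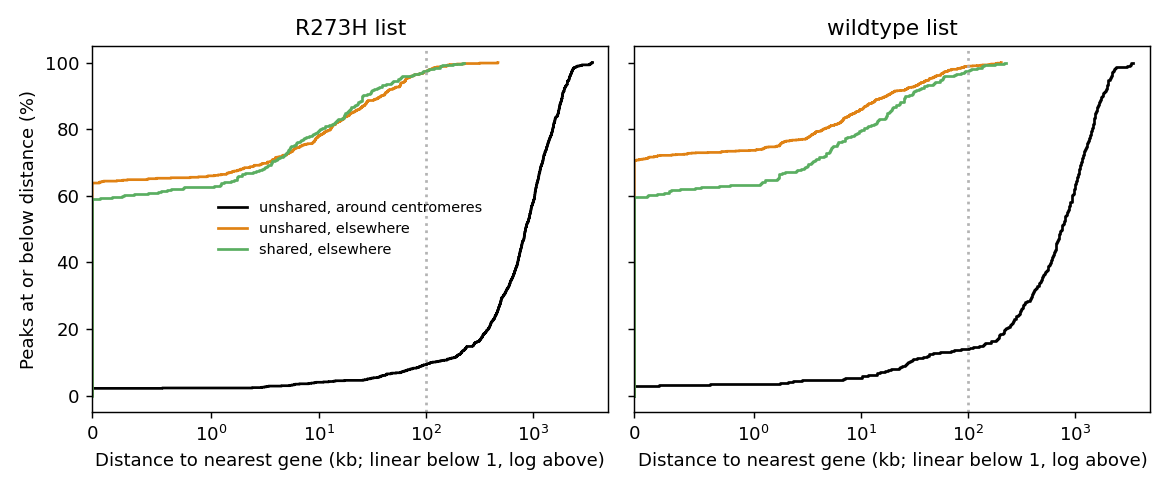
Cumulative share of peaks by distance to the nearest annotated gene (horizontal axis in kb, linear below 1 and logarithmic above), for each list; the dotted line marks 100 kb. Unshared peaks around the centromeres lie to the right, with 90.7% of the R273H and 86.0% of the wildtype peaks beyond the line, and the other 2 sets lie to the left.

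Few members lay inside a gene, and most of those genes were pseudogenes or long noncoding RNA (lncRNA) genes. In the R273H list 19 members, 2.17% (1.31 to 3.37), overlapped a gene, against 34.9% of all peaks of that list. In the wildtype list 14 members did, 2.89% (1.59 to 4.81), against 51.3% of all its peaks. The R273H members overlapped 18 genes, of which 10 were pseudogenes, 6 lncRNA genes and 2 protein-coding. The wildtype members overlapped 14 genes, of which 7 were pseudogenes, 3 lncRNA genes and 4 protein-coding.

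The protein-coding genes under R273H members were POTED, of a primate-specific ankyrin repeat family (chromosome 21, 13624141 to 13624205, score 78.4), and DNAJA2, which encodes an HSP70 co-chaperone (chromosome 16, 46958584 to 46958781, score 51.3). The POTED peak was 65 bp wide, the narrowest R273H member. In the wildtype list they were LYRM9 (chromosome 17, 27880958 to 27881019, score 83.97), C16orf87 (chromosome 16, score 67.5), ESCO1, which encodes an acetyltransferase of the cohesin ring (chromosome 18, 21593043 to 21593489, score 62.1), and CNTNAP3B. The LYRM9 peak, 62 bp wide, was the narrowest wildtype member. None of these genes carried members of both lists. Some of these peaks, such as those in LYRM9 and DNAJA2, lay near the edge of a range. With the ranges narrowed by 0.25 Mb, 1.85% of R273H members and 1.90% of wildtype members lay inside a gene, within the intervals above.

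Among lncRNA genes, R273H members lay in LOC105379481 on chromosome 20, with 2 peaks (scores 72.3 and 50.05), LOC105379428 on chromosome 22 (66.9), LOC105375302 on chromosome 7 (60.97), FAM242A on chromosome 20 (58.8), LINC00273 on chromosome 16 (53.7) and LINC01193 on chromosome 15 (50.9). Wildtype members lay in LINC00273 (116), CECR7 on chromosome 22 (60.6) and LOC442028 on chromosome 2 (52.6). LINC00273 was thus marked in both lists by peaks that did not overlap. Its wildtype peak at 34158785 to 34158872 and its R273H peak at 34159288 to 34159404 were 415 bp apart.

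Gene families of the segmental duplications were looked up as fixed lists. Of 275 genes in 20 such families, 57 lay in the ranges, and 6 of them (10.5%) had an R273H member inside or within 10 kb and 8 (14.04%) a wildtype member. Over all 1129 genes in the ranges the numbers were 47 (4.16%) and 37 (3.28%). The FRG1 family, copies of a gene first mapped near the facioscapulohumeral dystrophy region, had 5 of its 11 genes in the ranges. FRG1BP, FRG1DP and FRG1GP had R273H members, and FRG1CP, FRG1DP, FRG1EP and FRG1GP wildtype members. At FRG1GP on chromosome 22 the wildtype peak (12622859 to 12623086, score 90.7) and the R273H peak (12623534 to 12623707, score 54.0) were 447 bp apart. At FRG1DP on chromosome 20 they were 4578 bp apart. Since these copies resemble each other, which copy the reads came from is uncertain.

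In the other families POTED, GOLGA6L6 and ANKRD30BP1 had R273H members, and ANKRD20A17P, ANKRD20A21P, CNTNAP3B and GOLGA8CP wildtype members. None of the 16 DUX4L genes and pseudogenes in the ranges had a member of either list. Of 62 olfactory receptor genes there, the pseudogenes OR11J2P and OR11J5P were near or under an R273H member and none was near a wildtype one, shares near those over all genes in the ranges. Of 24 zinc finger genes, ZNF402P and ZNF962P were near an R273H member, and none near a wildtype one; counts this small say nothing of a difference between the lists. None of 40 classical p53 target genes, 10 centromere protein genes or 6 marker genes of other cell types lay in the ranges. Of the 47 genes with an R273H member within 10 kb and the 37 with a wildtype one, 8 were in both sets, 17.02% of the former and 21.6% of the latter. Over all 1129 genes in the ranges, 3.28% had a wildtype member that close and 4.16% an R273H member. The 8 genes are not independent sites. LINC00273, LOC110262331, MIR9901 and RNA5-8SP2 were all counted through the same pair of peaks on chromosome 16.

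By median, members were wider than the unshared peaks elsewhere in the same list. R273H members had a median width of 739.5 bp (quartiles 376 to 1696), against 168 bp (122 to 288) for unshared R273H peaks elsewhere. Wildtype members had a median width of 646 bp (318 to 1280), against 207 bp (143 to 344) elsewhere. At least 1000 bp were covered by 340 R273H members (38.9%, where the whole list had 21.2%) and by 168 wildtype members (34.7%, where the whole list had 12.1%). Shared peaks in the ranges were wide too, with medians of 1985 bp (R273H) and 1407.5 bp (wildtype). Together the R273H members covered 1.19 Mb at a mean width of 1364 bp, and the wildtype members 0.516 Mb at a mean of 1066 bp.

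Scores of the members were low within their lists. R273H members had a median score of 58.6 (quartiles 53.5 to 67.0), against 60.7 (54.3 to 76.5) for unshared R273H peaks elsewhere and 159 for shared ones elsewhere. Wildtype members had a median of 57.5 (53.3 to 66.2), against 62.4 (54.9 to 81.6) and 497. Shared peaks in the ranges also scored low, with medians of 67.7 (R273H) and 61.6 (wildtype). A score of at least 100 was reached by 26 R273H members (2.97%, where the whole list had 19.5%) and by 14 wildtype members (2.89%, where the whole list had 27.5%). Width and score went together only weakly in the members, with a Spearman correlation across peaks of 0.20 for R273H and 0.08 for wildtype. In shared peaks elsewhere the same correlation was 0.81 and 0.82. It was weak as well in unshared peaks elsewhere, 0.23 for R273H and 0.34 for wildtype. In shared peaks in the ranges it was 0.08 and 0.02. Peaks of a list share its library, and these correlations are descriptions.

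**Figure D4:**
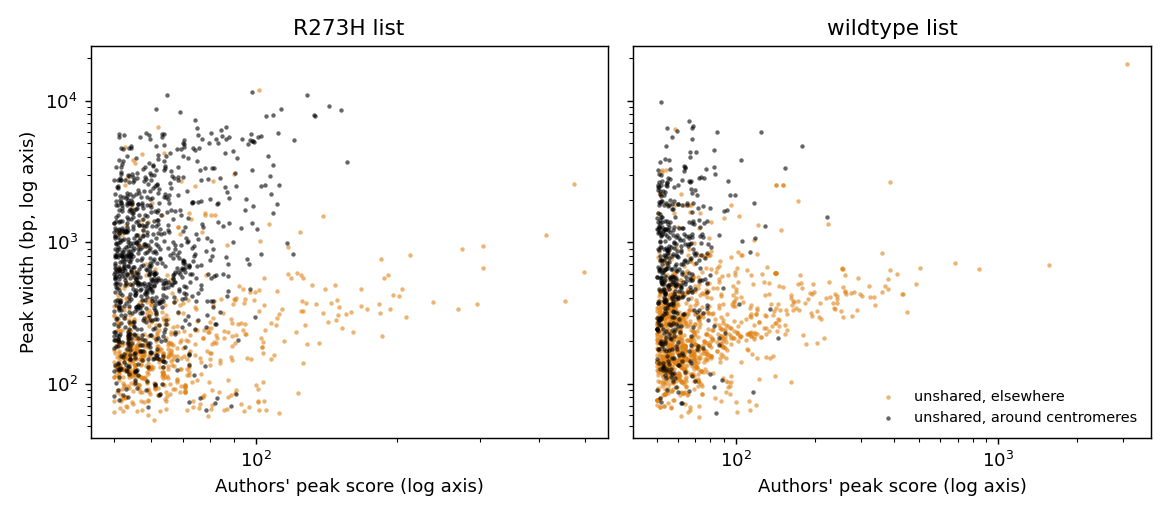
Width in bp against the authors' score for each unshared peak (both axes logarithmic), in the R273H list and the wildtype list; black points are peaks around the centromeres and orange points are peaks elsewhere. The black points stand at low scores over a wide span of widths, up to 11486 bp (R273H) and 9858 bp (wildtype). The widest orange points reach further, to 11807 bp (R273H) and 18225 bp (wildtype).

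Median width ranked the chromosomes in a similar order in both lists. The median width was largest on chromosome 6 in both, 3624 bp over 34 R273H members and 3353 bp over 14 wildtype members. It was 2751 bp on chromosome 20 in the R273H list, where 20 of 93 members were at least 5000 bp wide, and 1129 bp there in the wildtype list. On chromosome X, where members were most numerous, the medians were 487 and 524.5 bp, and none reached 5000 bp. Over 23 chromosomes the median widths of the 2 lists had a Spearman correlation of 0.83, and the median scores one of -0.10.

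Of the 10 highest-scoring R273H members, 8 were over 1000 bp wide and 9 over 100 kb from a gene. The first was on chromosome 20 (26672486 to 26676159, score 156), 420.9 kb from the nearest gene, and the second also on chromosome 20 (26957360 to 26965939, score 152), 706 kb away. A 9147 bp peak on chromosome 6 (59778802 to 59787948) scored 143. The next 7 scored between 133 and 113 and lay on chromosomes 5, 6, 13 and 20. The longest R273H member was an 11486 bp peak on chromosome 20 (27737223 to 27748708, score 98.4). The other 4 longest were on chromosomes 6 and 20 as well.

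Of the 10 highest-scoring wildtype members, 3 lay in the run on chromosome 2, led by a peak at 91507825 to 91509331 (222). Another 3 lay on chromosome 7, led by 60195345 to 60200125 (179). The third in rank was on chromosome 20 (26487904 to 26491262, score 154). Some were narrow and inside genes. A 339 bp peak lay inside EMBP1, a transcribed pseudogene on chromosome 1 (121544038 to 121544376, score 136), and the 88 bp peak in LINC00273 scored 116. The longest wildtype member was 9858 bp on chromosome 6 (59719782 to 59729639, score 51.7).

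Most members had no peak of the other list within 10 kb. A wildtype peak lay within 10 kb of 144 R273H members, 16.5% (14.1 to 19.1), and an R273H peak within 10 kb of 118 wildtype members, 24.4% (20.6 to 28.5). Over the whole lists, shared peaks included, 31.1% of R273H and 30.4% of wildtype peaks had a neighbour that close. Among unshared peaks elsewhere the shares were 5.76% (4.15 to 7.77) and 6.24% (4.90 to 7.80). Within 100 kb the shares of members rose to 73.2% and 77.5%. The rule excluded overlap, so the members could not stand at a distance of 0. The median gap to the other list was 44834 bp for R273H members and 33239 bp for wildtype members. The median gap to the nearest peak of their own list was 17078 and 39012 bp.

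Several pairs nearly touched. On chromosome 6 the R273H peak that scored 143 began 45 bp after a wildtype peak (59774399 to 59778756, score 66.6) ended. On chromosome 8 the gap between a wildtype peak (44346433 to 44348804) and an R273H peak (44348813 to 44350994) was 8 bp. Gaps of 35 bp on chromosome 6, 37 bp on chromosome 7 and 43 bp on chromosome 20 followed. In all, 17 R273H members (1.95%) and 17 wildtype members (3.51%) had a neighbour in the other list within 1000 bp. The shares were similar among unshared peaks elsewhere, 1.87% for R273H and 2.99% for wildtype, so such pairs were not particular to the ranges.

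Repeated peaks, with the same score and the same width as another peak of their set, were rarer among members than among unshared peaks elsewhere. They were 10 of 874 R273H members against 81 of 694 elsewhere, and 4 of 484 wildtype members against 180 of 1138 elsewhere. By score alone, 39.2% of R273H members were tied against 39.9% elsewhere, and 26.9% of wildtype members against 43.9%. Peaks elsewhere were narrower by median, and the part of width in this contrast was not tested. The number of possible matches also depends on the size of a set. The members were the larger set for R273H (874 against 694) and the smaller for wildtype (484 against 1138). The part of set size was not tested either. The 4 repeats among wildtype members are described because they fell on related chromosomes. Where the 10 among R273H members lay is not described. A group of R273H peaks equal in width but not in score is given beside the wildtype repeats. An R273H peak of 5318 bp was listed on each of chromosomes 13 (16230220 to 16235537, score 82.3), 14 (16348210 to 16353527, score 86.7), 21 (11094780 to 11100097, score 93.75) and 22 (13229005 to 13234322, score 76.8). Another of the same width lay on chromosome 7 (60628543 to 60633860, score 59.6). In the wildtype list a 243 bp peak scoring 50.18 was listed on chromosomes 13, 14, 21 and 22. The distance from the start of this wildtype peak to the start of the R273H peak was 229930 bp on both chromosome 13 and chromosome 21. It was 347920 bp on chromosome 14 and 273927 bp on chromosome 22. Chromosomes 13, 14, 21 and 22 are acrocentric, with short arms of repeated DNA, and are known to share closely related alpha satellite. These groups were picked out after their values were seen.

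Among members of at least 1000 bp, 40 of 340 R273H peaks and 17 of 168 wildtype peaks had exactly the width of another such member of their list (11.8% and 10.1%). Among unshared peaks elsewhere of that width it was 4 of 39 R273H peaks (10.3%) and 9 of 34 wildtype peaks (26.5%). The number of possible matches depends on the size of a set, and these sets differ in size. The shares therefore cannot tell whether equal widths were more or less frequent in the members. Smaller pairs of equal width were found at pseudogenes of duplicated blocks. R273H peaks of 149 bp lay in IGSF3P2 on chromosome 2 (91753110 to 91753258, score 62.2) and IGSF3P1 on chromosome 13 (18293446 to 18293594, score 60.5). Peaks of 592 bp lay 3400 bp from IGKV1OR2-1 (score 61.2) and 3272 bp from IGKV1OR2-2 (score 53.4), immunoglobulin pseudogenes that both stand on chromosome 2. The nearest wildtype peak was at least 219630 bp from each of these 4. Whether such copies are separate sites or the same reads placed more than once was not tested.

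At the edges of the ranges, the unshared R273H peak nearest to an edge on the inner side was 30.0 kb inside it, in LINC01193 on chromosome 15 (score 50.9), and the nearest on the outer side was 43.8 kb outside, on chromosome 22 (11956094 to 11956280, score 54.6). For the wildtype list these were a peak 0.624 kb inside on chromosome 6 (62999272 to 62999482, score 145) and one 49.6 kb outside on chromosome 21 (9950142 to 9950563, score 129). Within 1 Mb outside the ranges there were 32 unshared R273H and 26 unshared wildtype peaks.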

How the data were processed

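The authors deposited 1 peak list per genotype, with position, name and a score for each peak. Per the submitters' processing notes, hg38, HOMER, MACS and Bowtie 1.2.2 were used; their roles, the peak threshold, the use of the input and any pooling are not stated there. A list was tied to its genotype through the ChIP sample title that its name matches, although the wildtype ChIP description gives the R273H list's name and the R273H input description that of the wildtype list. Every direction between the genotypes would turn if the lists were exchanged. Peaks numbered below 193 in the R273H list and below 228 in the wildtype list were not at hand. Peaks were counted as shared at an overlap of at least 1 bp. Genes came from a RefSeq table of GRCh38.p14 (59679 genes used), without strand or exons. Intervals are exact: Clopper-Pearson for shares, conditional binomial for the ratio of counts. No p-value was computed. The overlap code was tested on simulated lists, with 300 of 300 planted overlaps found in each of 20 simulations. Python 3.11.15, pandas 2.3.3 and scipy 1.17.1 were used. Members and lists were chosen with earlier results of these data known. Named peaks were the 10 highest-scoring and 5 longest members and the 5 largest runs per list, with up to 12 overlapped genes per list by score; every overlapped lncRNA and protein-coding gene was added, as were the nearest pairs and the repeated widths.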

Additional observations from a re-analysis of the deposited data

How the results depend on the processing

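With 1 ChIP library per genotype no replicate could be left out, and no paired analysis was possible because each genotype had 1 ChIP library. Asking for a reciprocal overlap of 50%, midpoints within 200 bp, or counting gaps of up to 1000 bp as shared moved no value beyond its interval, nor any count by over 1.5 times. The R273H to wildtype ratio was 1.69 to 1.99 over all alternatives. A filter kept peaks with scores at or above the median of both lists (63.4), which may be stricter in 1 list than in the other. Both lists were cut first and sharing was then called again, so a peak that lost its partner could become a member. This gave 289 R273H and 145 wildtype members, in 135 and 96 runs. These were 48.2% and 19.7% of the unshared peaks, with density ratios of 20.7 and 5.44, median scores of 73.4 and 71.6 and median widths of 1006 and 923 bp. A peak of the other list, which was cut as well, then lay within 10 kb of 5.88% and 7.59% of members. That cut leaves fewer neighbours to find. Of the wildtype members 75.9% were over 100 kb from a gene and 5.52% inside one. With ranges widened by 1 Mb the density ratios were 21.97 and 7.36, 87.5% and 81.8% lay over 100 kb from a gene, and 3.53% of R273H members lay inside one. Over 50 kb from a gene were 93.2% of R273H members, and over 200 kb 87.8% of R273H and 81.6% of wildtype members. With protein-coding genes alone, 98.5% and 93.8% were over 100 kb away and 0.229% and 0.826% inside. Runs numbered 367 (R273H) at a gap of 50 kb, and 51 and 59 at 500 kb. A peak of the other list lay within 1 kb of 1.95% and 3.51% of members and within 100 kb of 73.2% and 77.5%. Read depth is unknown, so it is not known what depth limits.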
